A study of Mus musculus with 6 samples.

Results

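Leukocytes carry surface molecules that are numbered as clusters of differentiation, or CD antigens, and 53 of the 8251 genes read on the array belonged to this group. A gene was a member when its symbol in the platform annotation was Cd followed by a number and at most 1 subunit letter with a further number, and Cd36, Cd68 and Cd74 were left out. The 53 genes were represented by 70 of the 10833 probe sets assigned to a single gene. By textbook expression 9 members were placed among myeloid and antigen-presenting antigens, 21 among lymphoid antigens, 4 among pan-leukocyte antigens found on myeloid and lymphoid cells alike, and 19 among broad antigens that cells outside the blood also carry.

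RNA came from the tibialis anterior, a muscle of the mouse shin. The eccentric pool was taken 48 h after 50 contractions in which the active muscle was lengthened, the isometric pool 48 h after 50 contractions at fixed length, and the control pool from opposite legs that were stimulated only as far as needed to measure torque. Each pool held RNA of 4 animals and was divided over 2 Affymetrix MGU74Av2 arrays, called A and B here, so a group is 1 biological sample. Values are therefore given per array or as mean ± SD over n = 2 arrays of 1 pool, this SD covers array handling and not animals, and the groups were compared without p-values. The labels give neither strain, sex nor age of the mice, nor which exercised animals supplied the control legs.

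CD numbers name molecules and not a family. Some are receptors that start or restrain an immune response, such as the T cell co-receptors Cd4 and Cd8 and the endotoxin co-receptor Cd14. Others are tetraspanins, small proteins that cross the membrane 4 times and organise partner proteins, or short glycoproteins held by a lipid anchor. Resting muscle holds few leukocytes, and injured muscle is entered first by neutrophils and then by monocytes that become macrophages.

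All 8 markers of skeletal muscle fibres, among them Acta1, Ckm and Myh4, lay above a floor signal of 120.8, the 40th percentile of all values, in every pool. The arrays had trimmed mean signals of 500.3 and median signals of 187 to 197. In the ribosomal 18S control probe sets, the geometric mean signals were 1761 on isometric A and 23476 on isometric B, and 15860 on control A and 3870 on control B. The eccentric arrays had 7199 and 10403, so these signals do not show which array of a pair deviated. Results that rest on control A or isometric B, the brighter array of each pair, are given with and without them. Control B and isometric A were left out singly but not together. A gene was measured in a comparison when its signal exceeded the floor on each of the 2 arrays of either pool. It was called higher or lower when mean log2 signals, with values below the floor set to it, differed by at least 1 (2-fold) and all 4 pairings of arrays had the same sign.

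The promoters of 3 of the 4 pan-leukocyte antigens are shown because 3 of the 4 members called higher in the eccentric than in the control pool belong to this class. The 3 shown are not the 3 called: no promoter was found for Cd52, which was called, and Cd37 was not called. Each runs from 250 bases before to 50 bases after an annotated transcript start in RefSeq (GRCm38.p6), printed 5′ to 3′ on the gene's strand, and capitals mark GAGGAA or its reverse complement TTCCTC, the core bound by the myeloid and B cell factor PU.1.
Cd53, chr3:106790100-106790399, minus strand: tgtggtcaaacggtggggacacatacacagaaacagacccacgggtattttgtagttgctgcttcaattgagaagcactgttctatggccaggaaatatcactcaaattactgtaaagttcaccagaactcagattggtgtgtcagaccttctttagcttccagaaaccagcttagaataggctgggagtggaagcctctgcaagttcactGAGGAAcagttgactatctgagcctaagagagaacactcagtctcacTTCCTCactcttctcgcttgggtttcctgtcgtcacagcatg
Cd48, chr1:171681742-171682041, plus strand: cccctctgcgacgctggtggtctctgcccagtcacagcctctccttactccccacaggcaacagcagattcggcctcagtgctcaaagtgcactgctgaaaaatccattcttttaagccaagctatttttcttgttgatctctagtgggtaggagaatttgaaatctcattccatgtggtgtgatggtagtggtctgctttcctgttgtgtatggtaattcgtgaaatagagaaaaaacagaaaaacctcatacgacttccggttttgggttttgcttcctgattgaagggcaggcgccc
Cd37, chr7:45238790-45239089, minus strand: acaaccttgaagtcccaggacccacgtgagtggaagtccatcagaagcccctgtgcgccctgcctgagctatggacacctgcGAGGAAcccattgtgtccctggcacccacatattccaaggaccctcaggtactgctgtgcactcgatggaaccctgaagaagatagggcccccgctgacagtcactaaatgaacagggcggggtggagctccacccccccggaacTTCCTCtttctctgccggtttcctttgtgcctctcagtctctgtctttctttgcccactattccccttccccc
The Cd53 window held 2 copies, beginning 39 bases before and 8 bases after the start, and the Cd37 window held 2, beginning 168 and 23 bases before it. The Cd48 window held 0. On either strand the same letters occurred in 28.3% of all 32851 windows of 300 bases. Windows were found for 35 of the 53 members, some with several starts, and at least 1 copy occurred in 2 of 3 pan-leukocyte, 8 of 13 lymphoid, 8 of 16 broad and 0 of 3 myeloid and antigen-presenting genes. GGGCGG, the GC box bound by Sp1, occurred in 35.7% of all windows, in 11 of 16 broad genes and in 2 of 13 lymphoid genes, and among the 3 windows printed it was found in that of Cd37. The class counts are per gene, with 43 windows for the 35 genes, while the percentages are per window, so they are not directly comparable. These letters are a description of the windows and were tied to no measurement here.

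In all, 4 of the 26 measured members were called higher in the eccentric than in the control pool and 0 were called lower, beside 5.16% of all measured genes called higher and 1.06% called lower. These were Cd53, Cd52 and Cd48, which leukocytes of several kinds carry, and the broad tetraspanin Cd82. Cd37, Cd44, Cd48 and Cd53 were measured in this comparison through the eccentric pool alone, and Cd55 through the control pool alone, so a difference in that direction was built into their selection. In the same comparison 8 of 9 macrophage markers were called higher, with a median log2 difference of 1.46, and their part in the differences of the CD antigens was not tested. In pooled muscle RNA, more cells of a type and more RNA per cell cannot be told apart. The median log2 difference of the 26 was 0.22, and 17 of them had differences above 0. Without control A and isometric B the same 4 genes of 26 measured were called higher, beside 4.93% of all measured genes. Without control B 37 members were measured. Of these 7 were called higher, with Cd14, Cd37 and Cd63 added, and 1 (Cd4) lower, beside 6.07% of all measured genes called higher and 1.98% lower.

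Between the isometric and the control pool 1 of 26 measured members (Cd52) was called higher and 1 (Cd4) lower, where 0.915% of all measured genes were called higher and 0.323% lower. The median of the 26 was 0.02. Cd302, Cd37, Cd40 and Cd6 were measured here through the isometric pool alone, and Cd4 and Cd55 through the control pool alone. Without control A (27 measured), or without control A and isometric B together (29 measured), 0 members were called in either direction. Without control B 34 members were measured, with 2 higher (Cd37 and Cd52) and 2 lower (Cd4 and Cd79a). Of all measured genes 2.24% were then called higher and 1.23% lower. Cd79a was also called lower without isometric A, where 1.12% of all measured genes were.

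Between the eccentric and the isometric pool 2 of 28 measured members (Cd53 and Cd82) were called higher and 0 lower, beside 1.73% of all measured genes called higher and 0.676% lower. Without isometric B Cd48 was added, making 3 of 30 measured members, beside 2.29% of all measured genes. The median of the 28 was 0.20, and 20 had differences above 0. Cd4, Cd44, Cd48 and Cd53 were measured here through the eccentric pool alone, and Cd302, Cd40 and Cd6 through the isometric pool alone. By class the medians were 0.66 for pan-leukocyte and 0.20 for broad antigens. The lymphoid and myeloid medians kept no direction: the lymphoid one was 0.31 with all arrays, -0.0053 without isometric B and -0.0184 without isometric A, and the myeloid and antigen-presenting one was -0.07 with all arrays, 0.0158 without eccentric B and 0.014 without isometric A. These comparisons share pools with each other, so their counts are not independent.

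**Figure D1:**
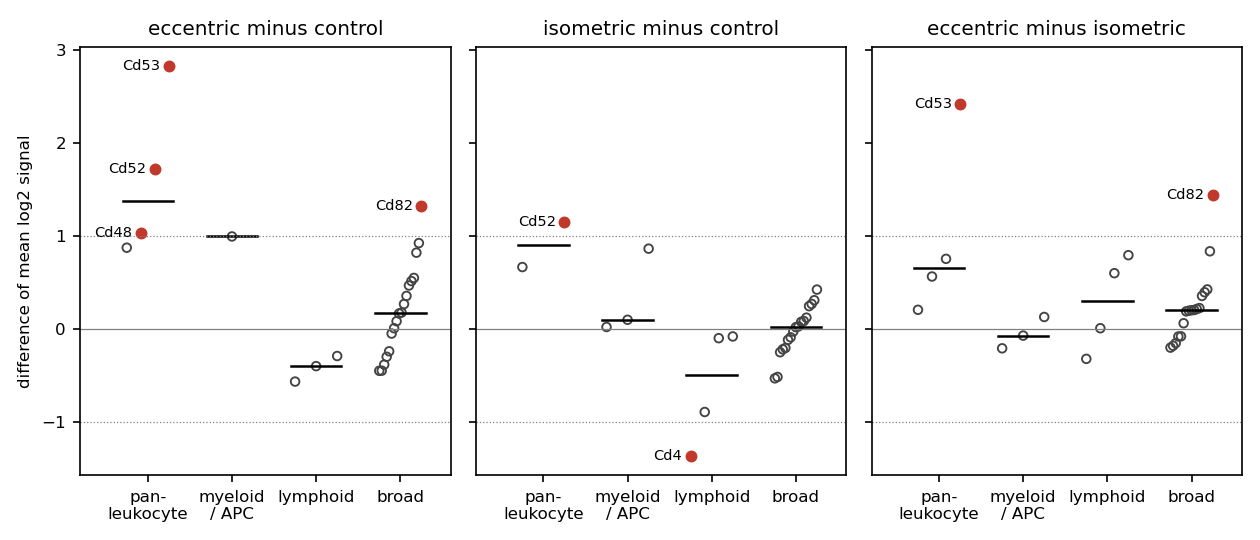
Difference of mean log2 signal for each measured CD antigen, by class, in the 3 comparisons, where filled points passed the 2-fold rule and are named, open circles did not, black lines are class medians and dotted lines mark differences of 1 and -1. With all arrays included, the measured pan-leukocyte antigens lie above 0 in every panel, 2 of them in isometric minus control. The measured lymphoid antigens then lie below 0 in both comparisons with the control pool. Without control A and isometric B, Cd37 was at -0.06 in isometric minus control.

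Of the 4 pan-leukocyte antigens, 3 (Cd53, Cd52 and Cd48) were called higher in the eccentric than in the control pool, and Cd37 was not called. Cd53, a tetraspanin confined to leukocytes, had a signal of 985 and 874 on the eccentric arrays, 246 and 118 on the isometric arrays and 18 and 142 on the control arrays (A and B in each case). Both eccentric arrays lay far above the other 4, while the isometric and control arrays overlapped. On floored values it was 7.09-fold higher in the eccentric than in the control pool and 5.38-fold higher than in the isometric pool. Control A and isometric B lay below the floor. Without these 2 arrays Cd53 was again called higher in both comparisons, and over all alternative settings its log2 difference from the control pool ran from 1.64 (floor at the 60th percentile) to 3.64 (20th percentile).

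Cd52, a short lipid-anchored glycoprotein of lymphocytes and myeloid cells, had signals of 823 and 913 on the eccentric arrays, 589.6 and 581 on the isometric arrays and 192 and 363 on the control arrays. The 3 pools did not overlap. The eccentric pool was 3.29-fold and the isometric pool 2.22-fold higher than the control pool, and the difference between the exercised pools, a log2 of 0.57, was not called. The call between the isometric and the control pool rested on control A, since without it the log2 difference was 0.69.

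Cd48, a lipid-anchored member of the SLAM family that binds Cd244, had signals of 229 and 269 on the eccentric arrays, 87.8 and 179 on the isometric arrays and 52.6 and 43.9 on the control arrays. Its control arrays were both below the floor, so Cd48 entered this comparison through the eccentric pool alone, and the fold was at least 2.06. This call lay close to the threshold and was lost when eccentric B was left out, at a log2 difference of 0.92, while with the floor at the 20th percentile the difference was 2.37. The receptor Cd244a stood above the floor on control A alone, at 204, while the other 5 arrays had 36.4 to 87.3.

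Cd37, a tetraspanin most abundant on B cells, had signals of 370.4 and 329 on the eccentric arrays, 288 and 317.5 on the isometric arrays and 60.6 and 299.5 on the control arrays. All arrays but control A lay within a narrow band, and the log2 differences from the control pool of 0.88 (eccentric) and 0.67 (isometric) were not called. Without control A the eccentric difference was 0.22, and without control A and isometric B the isometric difference was -0.06. The 4 pan-leukocyte antigens had a median log2 difference of 1.38 between the eccentric and the control pool, beside -0.02 over all 5682 measured genes. This median is given as a description, since 3 of the 4 (Cd37, Cd48 and Cd53) were measured through the eccentric pool alone, and 1 (Cd52) lay above the floor on all 6 arrays.

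**Figure D2:**
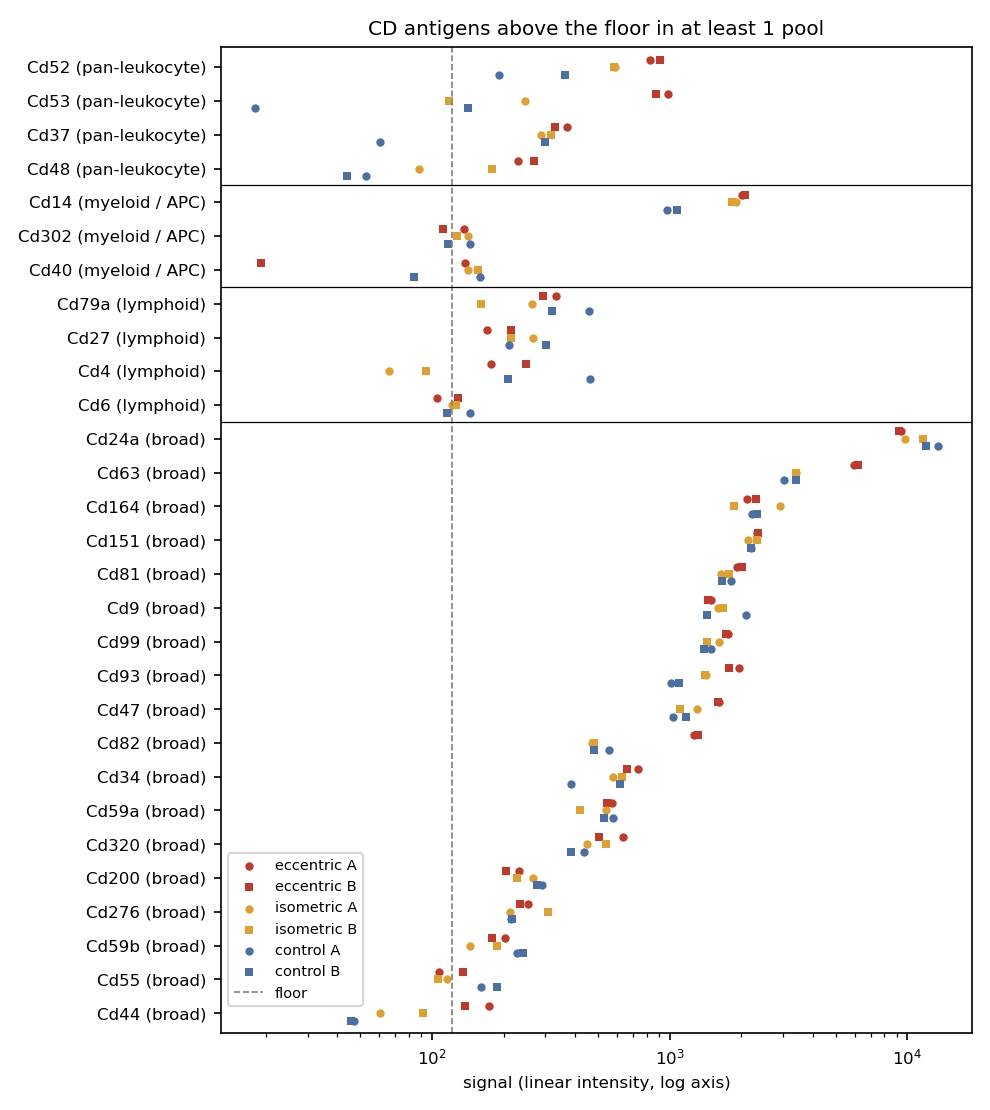
Signals of the 29 CD antigens whose 2 arrays both exceeded the floor in some pool, on a log axis, with circles for array A, squares for array B and a dashed line at the floor of 120.8. The eccentric arrays of Cd53, Cd52, Cd48 and Cd82 lie to the right of the control arrays, and the broad antigens span the widest range of signals, with Cd24a the brightest.

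Of the myeloid and antigen-presenting antigens, Cd14 was the only one well above the floor. This co-receptor passes bacterial endotoxin to Tlr4 on monocytes and macrophages. It had signals of 2008 and 2083 on the eccentric arrays, 1898 and 1837 on the isometric arrays and 974 and 1077 on the control arrays. Both exercised pools lay above the control pool with no overlap, and the eccentric arrays lay slightly above the isometric ones. The log2 difference from the control pool was 0.998 in the eccentric pool, just under the threshold of 1, and 0.87 in the isometric pool, so neither was called. The difference between the exercised pools was 0.13.

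The C-type lectin Cd302 had signals of 136 and 111 on the eccentric arrays, 142 and 127 on the isometric arrays and 145 and 117 on the control arrays. Cd40, which receives help from T cells on antigen-presenting cells, had 138 and 19.1 on the eccentric arrays, 142 and 156 on the isometric arrays and 159 and 84.1 on the control arrays. Both genes sat near the floor. The pools of Cd302 overlapped, while both eccentric arrays of Cd40 lay below its isometric arrays, a log2 difference of -0.21 on floored values that was not called. The other 6 members of the class did not reach the floor on both arrays of any pool. They were the co-stimulatory ligands Cd80 and Cd86, the dendritic cell antigen Cd83, the receptor Cd180, and the lipid-presenting molecules Cd1d1 and Cd1d2, which resemble each other in sequence. A signal under the floor is a limit of these arrays and does not show that a transcript was absent.

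Lymphoid antigens were dim. Of 21 members 4 exceeded the floor on both arrays of some pool, where 70.1% of all genes did, and 11 were never above it on any array. Those 11 were the T cell receptor chains Cd3d, Cd3e and Cd3g, the co-receptor chains Cd8a and Cd8b1, Cd2, Cd5, Cd28 and Cd96 of T and NK cells, and Cd22 and Cd72 of B cells, with signals between 6.5 and 109.8. The 4 measured members were Cd4, Cd79a, Cd27 and Cd6.

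Cd4, the co-receptor of helper T cells, had signals of 178 and 248 on the eccentric arrays, 66.0 and 94.0 on the isometric arrays and 460.2 and 209 on the control arrays. The isometric arrays were both below the floor and below the other 4, and the eccentric and control arrays overlapped. Cd4 was called lower in the isometric than in the control pool, by at least 2.57-fold, and without control A the log2 difference was -0.79 and not called. With the floor at the 20th percentile the difference was -1.98. Cd79a, a signalling chain of the B cell receptor, had 334 and 294 on the eccentric arrays, 264 and 162 on the isometric arrays and 456.5 and 321 on the control arrays, with log2 differences from the control pool of -0.29 (eccentric) and -0.89 (isometric), neither called. Its isometric arrays lay below both control arrays, while its eccentric and control arrays overlapped. Cd27, a receptor of the tumour necrosis factor family on T and B cells, had 171 and 214 on the eccentric arrays, 266 and 214 on the isometric arrays and 210.5 and 302 on the control arrays. The T cell receptor Cd6 had 105 and 128 on the eccentric arrays, 121 and 126 on the isometric arrays and 145 and 115 on the control arrays. For Cd27 and Cd6 neither exercised pool separated from the control pool. Cd7, an immunoglobulin-like receptor of T cells, had 58.8 and 204 on the eccentric arrays, 180.5 and 70.5 on the isometric arrays and 134 and 78.6 on the control arrays. Cd79b, the partner chain of Cd79a, had 55.8 and 101 on the eccentric arrays, 125 and 42.7 on the isometric arrays and 237 and 43.2 on the control arrays. For both genes the arrays of a pool straddled the floor or lay under it, and the pools overlapped.

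Control A was the brightest array for dim lymphoid antigens. The median signal of the 21 lymphoid members was 59.4 and 55.8 on the eccentric arrays, 25.5 and 55.1 on the isometric arrays and 109.8 and 46.8 on the control arrays. On control A 10 of the 21 lay above the floor, among them Cd160, Cd244a, Cd247, Cd70 and Cd79b, against 3 to 5 on every other array. Of the 16 lymphoid members with a mean signal at or below the floor, 14 were brighter on control A than on control B, and of the 2547 such genes on the whole array 66.2% were. The isometric pool ran the other way, with 4 of the 16 brighter on array A beside 40.8% of the 2547. These pairs of arrays carried the same RNA. The median log2 difference of the measured lymphoid antigens was -0.40 between the eccentric and the control pool (3 genes) and -0.49 between the isometric and the control pool (4 genes), and without control A and isometric B these medians were -0.03 and -0.09 (6 genes).

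**Figure D3:**
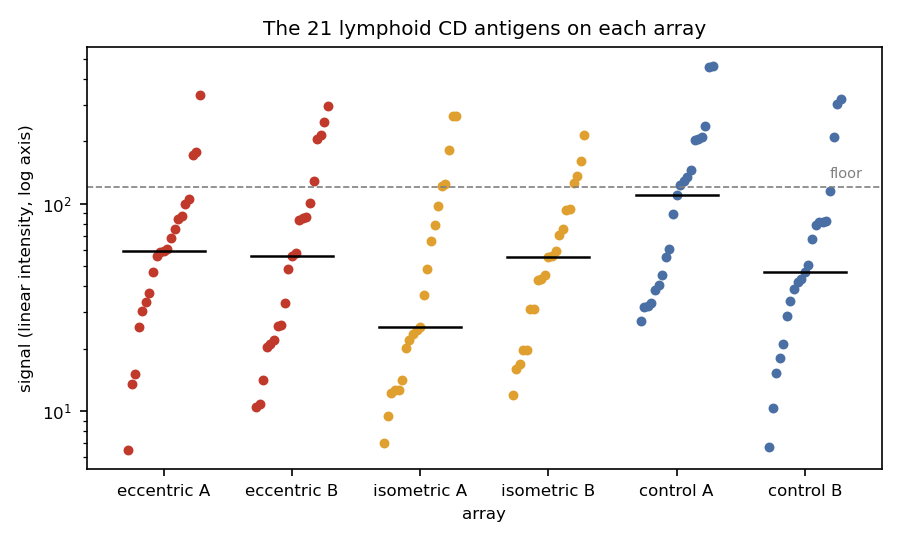
Signals of the 21 lymphoid CD antigens on each of the 6 arrays, sorted within an array, on a log axis, with a black line at the median and a dashed line at the floor. Most points lie below the floor, and on control A 10 lie above it, against 3 to 5 on each other array.

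Broad antigens were bright, and 1 of 19 (Cd82) passed the rule. It was 1 of 18 measured broad members between the eccentric and the control pool, beside 5.16% of all measured genes called higher. Between the eccentric and the isometric pool it was 1 of 17, beside 1.73%. Of the class 16 members lay above the floor on all 6 arrays. Cd82, a tetraspanin of leukocytes and many other cells, had signals of 1264 and 1317 on the eccentric arrays, 470.5 and 481 on the isometric arrays and 553 and 479.5 on the control arrays. The eccentric arrays stood clear of the other 4, which overlapped. Cd82 was 2.51-fold higher in the eccentric than in the control pool and 2.71-fold higher than in the isometric pool. A second probe set of the gene did not show this, with 589.9 and 426 on the eccentric arrays, 407 and 619.5 on the isometric arrays and 524 and 626 on the control arrays, a log2 difference of -0.19 between the eccentric and the control pool. With the mean over the probe sets of a gene, the log2 differences of Cd82 were 0.38 from the control pool and 0.48 from the isometric pool, not called.

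Cd63, a tetraspanin of lysosomes and late endosomes, had signals of 5985 and 6182 on the eccentric arrays, 3396 and 3409 on the isometric arrays and 3018 and 3396 on the control arrays. Its eccentric arrays lay above the other 4, with a log2 difference of 0.93 from the control pool and 0.84 from the isometric pool, under the threshold. Cd93, a lectin-like receptor of endothelium and myeloid cells, had 1959.6 and 1768 on the eccentric arrays, 1422 and 1405 on the isometric arrays and 1012 and 1094 on the control arrays, and its log2 differences from the control pool were 0.82 (eccentric) and 0.43 (isometric). The 3 pools of Cd93 did not overlap. Over the 20 members above the floor on all arrays, 4 (Cd14, Cd52, Cd63 and Cd93) had every eccentric array above every isometric array and every isometric array above every control array, an order that 7.63% of the 4838 such genes on the array followed. For Cd63 the lower isometric array, at 3396.4, and the higher control array, at 3395.6, were almost equal.

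Cd24a, a mucin-like lipid-anchored protein, was the brightest member, at 9412 and 9228 on the eccentric arrays, 9805 and 11664 on the isometric arrays and 13432 and 12009.8 on the control arrays. Its exercised arrays all lay below the control arrays, with log2 differences of -0.45 (eccentric) and -0.25 (isometric), not called. Cd164, a sialomucin, had 2119.6 and 2297 on the eccentric arrays, 2918 and 1857 on the isometric arrays and 2227 and 2335 on the control arrays, and the isometric arrays differed from each other by more than the pools did. Cd151, a tetraspanin that binds laminin receptors, had 2321 and 2343 on the eccentric arrays, 2139 and 2327 on the isometric arrays and 2205.5 and 2190.2 on the control arrays. Its probe set is of a kind that shares probes with related sequences. Between the eccentric and the control pool it had a log2 difference of 0.09. Of the other measured probe sets of Cd151, one at 1726 to 2190.1 had a log2 difference of 0.13 and one at 744 to 1094 had -0.36.

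Cd81 and Cd9, tetraspanins known from studies of myoblast fusion, did not pass either. Cd81 had 1911 and 2023 on the eccentric arrays, 1642 and 1776 on the isometric arrays and 1819 and 1659 on the control arrays. Cd9 had 1497 and 1443 on the eccentric arrays, 1594 and 1669 on the isometric arrays and 2099.8 and 1430.3 on the control arrays, where control A was the highest of the 6 arrays and control B the lowest. With Cd37, Cd53, Cd63, Cd82 and Cd151 they make up 7 tetraspanins, a grouping made after their values were seen. Of these 7, 2 (Cd53 and Cd82) were called higher in the eccentric than in the control pool, beside 5.16% of all measured genes. The same 2 were called higher in the eccentric than in the isometric pool, beside 1.73%. Cd53 was measured in both comparisons through the eccentric pool alone, and the second probe set of Cd82 did not show a rise. Between the isometric and the control pool 0 of 6 were called, beside 0.915% of all measured genes higher and 0.323% lower.

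**Figure D4:**
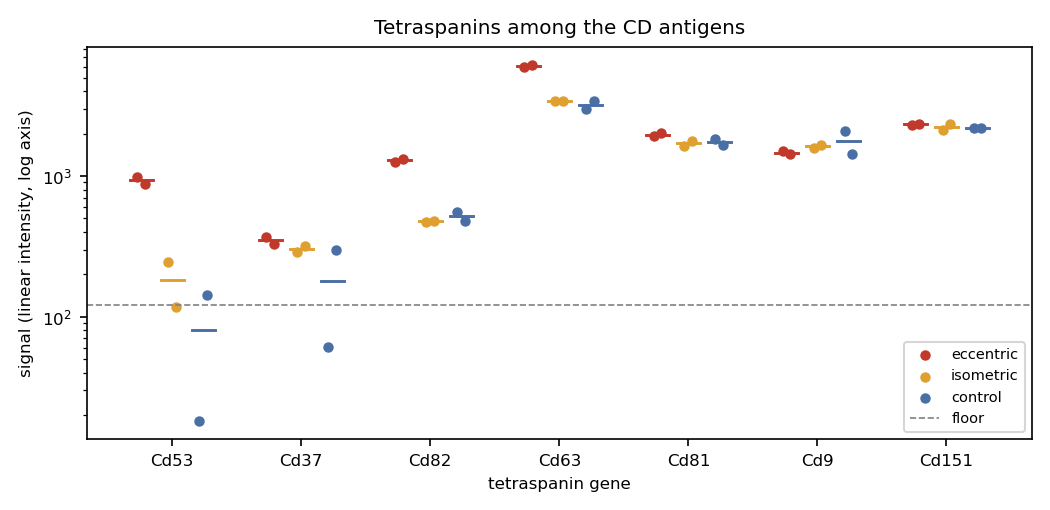
Signals of the 7 tetraspanins on each array (points) with the mean of the 2 arrays of a pool (short lines), on a log axis, with a dashed line at the floor. Cd53, Cd82 and Cd63 stand clearly higher on both eccentric arrays than on the other 4. In Cd37 and Cd81 the eccentric arrays lie above the highest other array by a smaller margin. In Cd9 and Cd151 the eccentric arrays overlap the others.

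Cd47, a ligand that restrains phagocytes through the receptor Sirpa, had a mean signal of 1611 ± 8.99 in the eccentric pool, 1202 ± 137 in the isometric pool and 1101 ± 94.3 in the control pool. Both of its measured probe sets had differences above 0 between the eccentric and the control pool, log2 0.55 and 0.37, and neither was called. Sirpa itself, a CD antigen filed under another symbol, had 1035 and 1002 on the eccentric arrays, 454 and 456 on the isometric arrays and 259.8 and 276 on the control arrays, 3.80-fold higher in the eccentric than in the control pool. Cd200, a ligand that restrains myeloid cells, had 218 ± 18.7 in the eccentric pool, 247 ± 27.0 in the isometric pool and 284 ± 9.19 in the control pool, a log2 difference of -0.38 between the eccentric and the control pool, not called.

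Of the 4 members that regulate complement, 3 were measured and 0 were called. Cd55, which speeds the decay of complement convertases, had 121 ± 19.8 in the eccentric pool, 111 ± 6.44 in the isometric pool and 175 ± 18.9 in the control pool. Its 4 exercised arrays all lay below both control arrays, and 1 of the 4 was above the floor. Cd59b, which blocks the membrane attack complex, had 192 ± 16.9 in the eccentric pool, 166 ± 30.5 in the isometric pool and 235 ± 10.2 in the control pool, and its close relative Cd59a had 557 ± 18.1 in the eccentric pool, 479.7 ± 82.7 in the isometric pool and 554 ± 36.1 in the control pool. The log2 differences between the eccentric and the control pool were -0.45 for Cd55, -0.30 for Cd59b and 0.01 for Cd59a. Cd46, which in mice is found mainly in testis, was never above the floor.

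The remaining broad members were not called with the floor and 2-fold rule used here. Cd44, the hyaluronan receptor, had 174 and 138 on the eccentric arrays, 60.7 and 91.5 on the isometric arrays and 46.9 and 45.8 on the control arrays. Only the eccentric arrays lay above the floor, so its log2 difference of 0.36 is a lower bound, and its probe set may share probes with other sequences. With the floor at the 20th percentile Cd44 was called higher in the eccentric than in the control and the isometric pool. With no floor it was called higher than in the control pool only. Cd34, carried by progenitor cells and endothelium, had 697 ± 53.5 in the eccentric pool, 604 ± 37.7 in the isometric pool and 499.9 ± 163 in the control pool. A second probe set of Cd34 had a log2 difference of 0.32 between the eccentric and the control pool, where the one used had 0.52. Cd320, the receptor for transcobalamin, had 570.1 ± 95.3 in the eccentric pool, 495 ± 63.8 in the isometric pool and 409.6 ± 37.5 in the control pool. Cd99 and Cd276 had log2 differences of 0.27 and 0.17 between the eccentric and the control pool.

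CD antigens filed under other gene symbols were read from a list for each class. Of 11 measured myeloid ones, 6 were called higher in the eccentric than in the control pool and 0 lower, with a median log2 difference of 1.09. Csf1r, the receptor for the macrophage growth factor, had 1192 and 1203 on the eccentric arrays, 648 and 652 on the isometric arrays and 502 and 483 on the control arrays, and the mannose receptor Mrc1 was 3.20-fold higher in the eccentric than in the control pool. Of 5 measured lymphoid ones, 1 was higher (Thy1, 2.05-fold, which cells other than T cells also carry) and the median was 0.02. Of 4 measured pan-leukocyte ones, 1 was higher, Itgb2, the beta chain of leukocyte integrins, at 473 and 390 on the eccentric arrays, 239.5 and 242.5 on the isometric arrays and 87.5 and 209 on the control arrays, and the median was 0.84. Of 15 measured broad ones 0 were called and the median was 0.05. Csf2ra, Fcgr2b, Il1r2, Il7r, Ptprc, Itgb2, Vcam1, Nt5e and Dpp4 were measured in this comparison through the eccentric pool alone, and Il2rb through the control pool alone. A difference in that direction was built into their selection, so these counts and medians are descriptions. Between the isometric and the control pool 1 of 9 measured myeloid ones (the scavenger receptor Msr1) was called higher and 1 lower (Csf3r, the receptor for the granulocyte growth factor), and 0 were called in the other lists. Without control A and isometric B neither was called, with log2 differences of 0.79 for Msr1 and -0.49 for Csf3r. Between the eccentric and the isometric pool 4 of 11 myeloid ones were called higher and 0 in the other lists. Fcgr2b, Il1r2 and Ptprc were measured there through the eccentric pool alone. Without control A and isometric B the myeloid counts were 5 of 12 between the eccentric and the control pool and 5 of 11 between the eccentric and the isometric pool. Itgb2 and Thy1 were then called higher in the eccentric than in the control pool again.

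Markers of single cell types were read beside these antigens. Of 9 macrophage markers, 3 of which (Csf1r, Mrc1 and Msr1) are also CD antigens of the myeloid list, 8 were called higher in the eccentric than in the control pool. Their summed signal was 17902 to 18032 on the eccentric arrays, 9880.5 to 11947 on the isometric arrays and 6665 to 7087 on the control arrays. All 9 lay above the floor in the eccentric and isometric pools, and all but Adgre1 in the control pool. Of 8 neutrophil markers 5 were measured between the eccentric and the control pool, with a median log2 difference of 0.02. Of the 5, 2 (S100a8 and S100a9) were called higher, S100a9 being measured through the eccentric pool alone. Camp was at 0.02, Elane at -0.44 and Mpo, measured through the control pool alone, at -0.08, and none of them was called. Summed signals of the 8 were 1423 to 1599 on the eccentric arrays, 1189 to 1219 on the isometric arrays and 964.5 to 1455 on the control arrays.

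Markers of lymphocytes and of other cells followed. The summed signal of 7 B cell markers was 2347 to 2678 on the eccentric, 2317 to 2651 on the isometric and 2302 to 2627 on the control arrays, with 0 called. Of 8 T cell markers 3 (Zap70, Lat and Thy1) were on the array, with sums of 1049.9 to 1171 on the eccentric, 900.4 to 1001 on the isometric and 825 to 963 on the control arrays. The 3 did not move together: between the eccentric and the control pool log2 differences were 1.04 for Thy1, 0.01 for Lat and -0.32 for Zap70. Only Thy1, which cells other than T cells also carry, was called. Of the 6 NK cell markers on the array 0 exceeded the floor on both arrays of any pool. Of 6 dendritic cell markers 4 were measured and 0 were called, and of 5 endothelial markers 0 were called, with endothelial sums of 2774 to 2907 on the eccentric, 2603 to 3454 on the isometric and 3098 to 3138 on the control arrays. The part of these cell types in the differences of the CD antigens was not tested.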

How the data were processed

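Signals of 6 arrays, a single RNA pool per group split over 2 arrays, were read from the deposited value table. Its values are linear intensity signals per probe set as the authors deposited them. The trimmed means of 500.3 on each array show one common scaling, while software, background correction and summary method were not given in the sources used here. Platform annotation assigned 10833 of 12488 probe sets to 1 gene, 396 to several and 1193 to none, and 66 were manufacturer controls. Arrays were scaled to one trimmed mean (2% left out at each end), and log2 signals were computed after raising values under 120.8, the 40th percentile, to that floor. The brightest single-gene probe set stood for a gene. Folds divide geometric means of the floored values, so they understate differences that reach the floor. No model or p-value was computed, since each group is 1 pool, and 2 arrays per pool limit the precision. The members, their classes and all lists were chosen with earlier results of these data known. By rule, values per array were given for called members, myeloid and pan-leukocyte members above the floor, the 6 brightest broad and 6 brightest lymphoid members, and at most 4 called genes of each other list, while the other measured broad members, Cd244a and Msr1 were named after their values were seen. Alternatives covered scaling, floor, filter, fold, choice of probe set and arrays left out, and for the lists of other symbols the last was added after seeing the data. Python 3.11.15, numpy 2.4.6 and pandas 2.3.3 were used. RefSeq promoters were matched by symbol.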

Additional observations from a re-analysis of the deposited data

How the results depend on the processing

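No paired analysis was possible because no result comes from a test and both arrays of a pool carry the same RNA. Of the values recomputed under each alternative for counts of called members, 67 of 96 stayed within 1.5 times the reported count, and of those for class medians 124 of 167 stayed within the spread between pairings. No called gene changed sign. Causes were not tested beyond the construction of each alternative. Percentages in brackets are the shares of all measured genes called in that direction under the same setting. Members higher in the eccentric than in the control pool (4 reported) numbered 2 of 20 with all 6 arrays required above the floor (4.3%). They numbered 6 of 41 with the floor at the 20th percentile (6.04%) and 6 of 26 with no floor (4.77%). At 1.5-fold they numbered 8 of 26 (12.2%) and at 3-fold 2 of 26 (1.25%). With 1 array left out they ran from 3 of 28 (5.09%) to 7 of 37 (6.07%). Members lower there (0) numbered 1 of 41 with the floor at the 20th percentile (2.59%). With 1 array left out they numbered 0 to 1, the 1 being of 37 without control B (1.98%). Members higher in the eccentric than in the isometric pool (2) numbered 4 of 41 at the 20th percentile (2.99%) and 1 of 20 with all arrays above the floor (1.26%). At 1.5-fold they numbered 6 of 28 (7.7%) and at 3-fold 1 of 28 (0.32%). With the mean over probe sets they numbered 1 of 28 (1.37%) and with the dimmest probe set 1 of 22 (1.82%). With 1 array left out they numbered 2 to 3 (2.05% to 2.63%). Members lower there (0) numbered 1 of 41 at the 20th percentile (1.81%). Members higher in the isometric than in the control pool (1) numbered 2 of 40 at the 20th (2.07%) and 0 of 16 at the 60th percentile (0.438%). They numbered 2 of 26 at 1.5-fold (3.89%), 0 of 26 at 3-fold (0.0359%) and 0 of 29 without control A and isometric B (1.37%). Members lower there (1) numbered 2 of 40 at the 20th (1.71%) and 0 of 16 at the 60th percentile (0.154%). They numbered 0 of 20 with all arrays above the floor (0.145%), 2 of 26 at 1.5-fold (2.31%) and 0 of 26 at 3-fold (0.0718%). Without those 2 arrays they numbered 0 of 29 (0.931%). With 1 array left out both counts ran from 0 of 27 without control A (0.885% higher, 0.538% lower) to 2 of 34 without control B (2.24% higher, 1.23% lower). Median log2 differences between the eccentric and the control pool moved for broad antigens to 0.27 (60th percentile), 0.10 (mean over probe sets) and 0.0942 (dimmest), for lymphoid ones to 0.00 with no filter, -0.0346 without control A and isometric B, and -0.56 to -0.0346 with 1 array left out, for Cd14 and the other myeloid ones to -0.0805 (20th percentile), 0.00 (no filter) and -0.19 to 0.92 (1 array left out), and for pan-leukocyte ones to 2.04 (20th percentile) and 1.15 to 1.86 (1 array left out). Between the eccentric and the isometric pool they moved for broad antigens to 0.15 (median scaling), 0.26 (without control A and isometric B) and 0.15 to 0.26 (1 array left out), for lymphoid ones to 0.04 (20th percentile), 0.14 (all arrays above the floor), 0.00 (no filter), 0.70 (dimmest), -0.0053 (without control A and isometric B) and -0.0184 to 0.47 (1 array left out), and for myeloid ones to 0.12 (20th percentile), 0.13 (60th percentile) and 0.13 (all arrays above the floor), with a change of sign also to 0.0158 without eccentric B and 0.014 without isometric A. Between the isometric and the control pool they moved for broad antigens to 0.0561 (median scaling), -0.025 (mean over probe sets), -0.0564 (dimmest), -0.0151 (without control A and isometric B) and -0.0394 to 0.0166 (1 array left out), for lymphoid ones to 0.00 (no filter), -1.13 (dimmest), -0.0892 (without control A and isometric B) and -0.49 to -0.23 (1 array left out), and for myeloid ones to 0.87 (60th percentile), 0.87 (all arrays above the floor) and -0.11 to 0.30 (1 array left out), with a change of sign also to -0.0888 at the 20th percentile. With the reported settings the myeloid median between the eccentric and the control pool was that of 1 gene, Cd14. In both other comparisons it was Cd14 alone with the floor at the 60th percentile and with all arrays above the floor. Signals near the floor, which hold most lymphoid antigens, limit what these arrays can show, and the spread between animals was not measured.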
